A study of Rattus rattus with 23 samples.

Results

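Interferon-induced genes were followed in nasal respiratory epithelium of rats that had breathed hydrogen sulfide (H2S), an irritant gas that poisons mitochondrial respiration. The 9 genes were chosen by symbol: Rsad2, Ifit3, Ifit2, Isg15, Mx1, Mx2, Oas1a, Irf7 and Irf1. The choice of genes was made with earlier results of these data known. Every probe set whose platform annotation gave one of these symbols was then taken, a step that uses no measured value. That gave 11 probe sets of the 31099 on the array, with 1 for each gene except Ifit2 and Mx2, which had 2 each. A filter on low signal kept 9 of the 11, covering 8 genes, among 19822 probe sets tested. Both Mx2 probe sets failed the filter, so their values are given without a call.

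Interferons are secreted proteins that cells release when they sense viral or misplaced nucleic acids, and in the airway the epithelium itself both makes and answers them. Type I and type III interferons bind separate receptors, and both act through JAK kinases to switch on a shared set of antiviral genes. Some of these genes, Irf7 and Irf1 among them, encode transcription factors that feed back on the same programme, while others encode proteins that block viral replication directly.

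The exposed animals breathed 200 ppm H2S through the nose only, for 3 h per day. Exposed tissue was collected 3 h (4 rats), 6 h (3 rats) and 24 h (4 rats) after the start of a single exposure, and at 144 h (4 rats) in rats with 5 daily exposures. Air-breathing rats were collected at 24 h (4 rats, 1 day in the exposure system) and at 144 h (4 rats, 5 days). All were male adult Sprague-Dawley rats with no genetic change, and epithelium at the place where injury and regeneration occur was cut out by laser capture. No air group was collected at 3 h or 6 h, so both early groups were set against air rats collected at 24 h, and exposure and collection time cannot be told apart there. The same 4 air rats serve the comparisons at 3 h, 6 h and 24 h.

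Some descriptions conflict. The treatment notes of animals 6 (H2S, 3 h), 14 (H2S, 24 h) and 18 (air, 24 h) give 5 exposure days, although their titles place them in single-day groups. The age is 60 days in the sample labels and 10 weeks in the series text, which also counts 24 rats where 23 arrays were analysed here. The groups follow the titles, and values without the 3 animals are given where they move a result.

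Each array is 1 animal. The deposited signals were on a common scale, with a trimmed mean of 500.1 to 500.2 on every array and medians from 136 to 341. 2 arrays stood apart: the median Pearson correlation against all others was 0.431 for array 18 (air, 24 h) and 0.742 for array 22 (air, 144 h), and 0.858 to 0.917 for the remaining 21. Their spike-in control probe sets averaged 20.39 and 18.16 on the log2 scale, against 12.06 to 14.08 on the remaining arrays. The RNA integrity number, given for 19 arrays, ran from 1.7 to 10. It was 2.6 for array 18, as for array 13 (H2S, 24 h), and 6.9 for array 22. Epithelial markers were well above background: Krt18, a keratin of simple epithelia, averaged 13.42 on the log2 scale, Muc5b, a mucin of secretory cells, 12.06, and Foxj1, the regulator of motile cilia, 9.67. Leukocyte markers were also detected and differed between animals, as given with the results they touch. In bulk tissue, fewer cells of a type and less RNA per cell cannot be told apart.

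All member levels are log2 of the signal plus 16, and all changes are differences of group means on that scale, with limma's standard error (SE). A call required a Benjamini-Hochberg adjusted p under 0.05 over all kept probe sets. No member passed it in any of the 8 comparisons made here, so what follows are levels and unadjusted evidence, not calls.

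At 3 h, Rsad2, Ifit3 and Irf7 had higher values in every exposed rat than in any air rat collected at 24 h, and so did the weaker Ifit2 probe set. Rsad2 encodes viperin, an antiviral enzyme of the endoplasmic reticulum. Its level was 10.54, 9.41, 10.92 and 9.50 in the H2S rats at 3 h, against 8.46, 8.76, 7.99 and 5.07 in the air rats at 24 h. The lowest exposed rat was above the highest air rat, and the single very low air value belongs to animal 18. The difference was 2.52 (SE 0.65, 95% interval 1.17 to 3.87), a 5.73-fold higher mean, with limma's unadjusted p = 0.000841 and adjusted p = 0.204. Without animal 18 it was 1.69.

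Ifit3 belongs to a family of proteins that bind viral RNA and stop its translation. It read 8.25, 8.30, 8.98 and 7.99 in the H2S rats at 3 h and 7.28, 6.96, 6.17 and 5.69 in the air rats at 24 h. Again the groups were apart, the lowest exposed rat lying above the highest air rat. The difference was 1.86 (SE 0.56, 95% interval 0.69 to 3.02; limma, adjusted p = 0.321). This probe set exceeded its array's median on 6 arrays, among them all 4 H2S arrays at 3 h and no air array. It therefore entered the test only through exposed animals, and its separation is no independent support.

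Ifit2, a relative of Ifit3 with a similar role, was read by 2 probe sets that differed in brightness. The dimmer one (1379568_at) was at 6.82, 7.14, 7.97 and 7.34 in the H2S rats at 3 h and at 5.55, 6.66, 6.69 and 5.81 in the air rats at 24 h, a difference of 1.14 (SE 0.53; limma, adjusted p = 0.500). The brighter one (1384180_at) was at 10.02, 9.96, 11.81 and 10.39 in the H2S rats and at 9.80, 8.94, 10.19 and 10.57 in the air rats, a difference of 0.67 (SE 0.67; limma, adjusted p = 0.727) that was 0.25 without animal 5. The groups were apart for the dimmer probe set and overlapped for the brighter one, so the 2 readings of Ifit2 disagree. In the fit that adds the RNA integrity number, given for 19 arrays, the difference of the dimmer one was 0.46. That fit leaves out animals 5 and 6 (H2S, 3 h) and 15 (air, 24 h), which have no such number. Both the loss of these animals and the added covariate enter that value.

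Irf7, the transcription factor that amplifies type I interferon production, was at 8.98, 9.09, 9.46 and 9.30 in the H2S rats at 3 h, against 8.88, 8.15, 8.64 and 6.08 in the air rats at 24 h. The 4 exposed rats were close together, and the highest air rat lay just below them. The difference was 1.27 (SE 0.47, 95% interval 0.29 to 2.24; limma, adjusted p = 0.411). Animal 18 again held the lowest value, and without it the difference was 0.65. Without animals 6, 14 and 18 it was 0.62.

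Irf1, a transcription factor induced by interferon-gamma and by inflammatory signals, was at 9.53, 10.24, 9.96 and 10.47 in the H2S rats at 3 h and at 9.69, 9.41, 8.97 and 9.27 in the air rats at 24 h. Only animal 3 fell inside the air range, and the difference of 0.71 (SE 0.37, 95% interval −0.05 to 1.47) had a limma adjusted p of 0.530. Isg15 encodes a ubiquitin-like protein that is joined to other proteins during the antiviral response. It was at 8.84, 8.88, 10.26 and 8.16 in the H2S rats and at 8.42, 6.73, 7.91 and 9.39 in the air rats. The ranges overlapped, with a difference of 0.92 (SE 0.81; limma, adjusted p = 0.691), and 0.52 without animal 5. The width of the overlap came from animal 18, which held the highest air value, 9.39. The next air rat, at 8.42, was still above the lowest exposed rat, at 8.16.

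Mx1 and Oas1a had negative differences at 3 h, and that of Oas1a turned with 1 animal. Mx1, a GTPase that blocks the replication of influenza and other viruses, was at 8.90, 9.38, 9.64 and 8.20 in the H2S rats and at 10.18, 8.41, 8.83 and 10.12 in the air rats, a difference of −0.36 (SE 0.53; limma, adjusted p = 0.825). Oas1a, an enzyme that makes the messenger activating the RNA-degrading RNase L, was at 7.23, 8.70, 7.83 and 7.84 in the H2S rats and at 7.27, 7.77, 6.51 and 10.32 in the air rats, a difference of −0.07 (SE 0.64; limma, adjusted p = 0.976). The highest air value of Oas1a was that of animal 18, in which Rsad2, Irf7 and Ifit3 were at their group's lowest. Without that animal the Oas1a difference was 0.71 at 3 h and 0.74 at 6 h, and the Mx1 difference at 3 h was −0.11. Mx2, a relative of Mx1, was dim throughout: 1 probe set (1369202_at) averaged 5.91 and the other (1387283_at) 6.63 over all arrays, and they exceeded the array median on 2 and 1 arrays. Ifit, Mx and Oas genes have close relatives in the rat, and whether their probes bind only the named transcript was not tested.

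Over the 9 probe sets tested at 3 h, 7 had a positive and 2 a negative difference, where 55.4% of all tested probe sets were positive. The member median was 0.92, against 0.09 over all tested probe sets. By the adjusted p, 0 of 9 members were called, where 0.0807% of all probe sets were. At an unadjusted p under 0.05 there were 4 of 9, against 9.8% of all probe sets, and 4 of 9 had every H2S rat above every air rat, against 3.02% of all probe sets. One of these 4 is Ifit3, which passed the filter only through its high group. The count at the unadjusted threshold moved with the setting. Without animal 18 it was 2 of 9, against 1443 of 19822 probe sets, with a member median of 0.90 against −0.003. Without animals 6, 14 and 18 it was 2 of 9, against 963 of 19822, with a member median of 0.95. Quantile normalization gave 5 of 9, against 1964 of 19822.

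**Figure D1:**
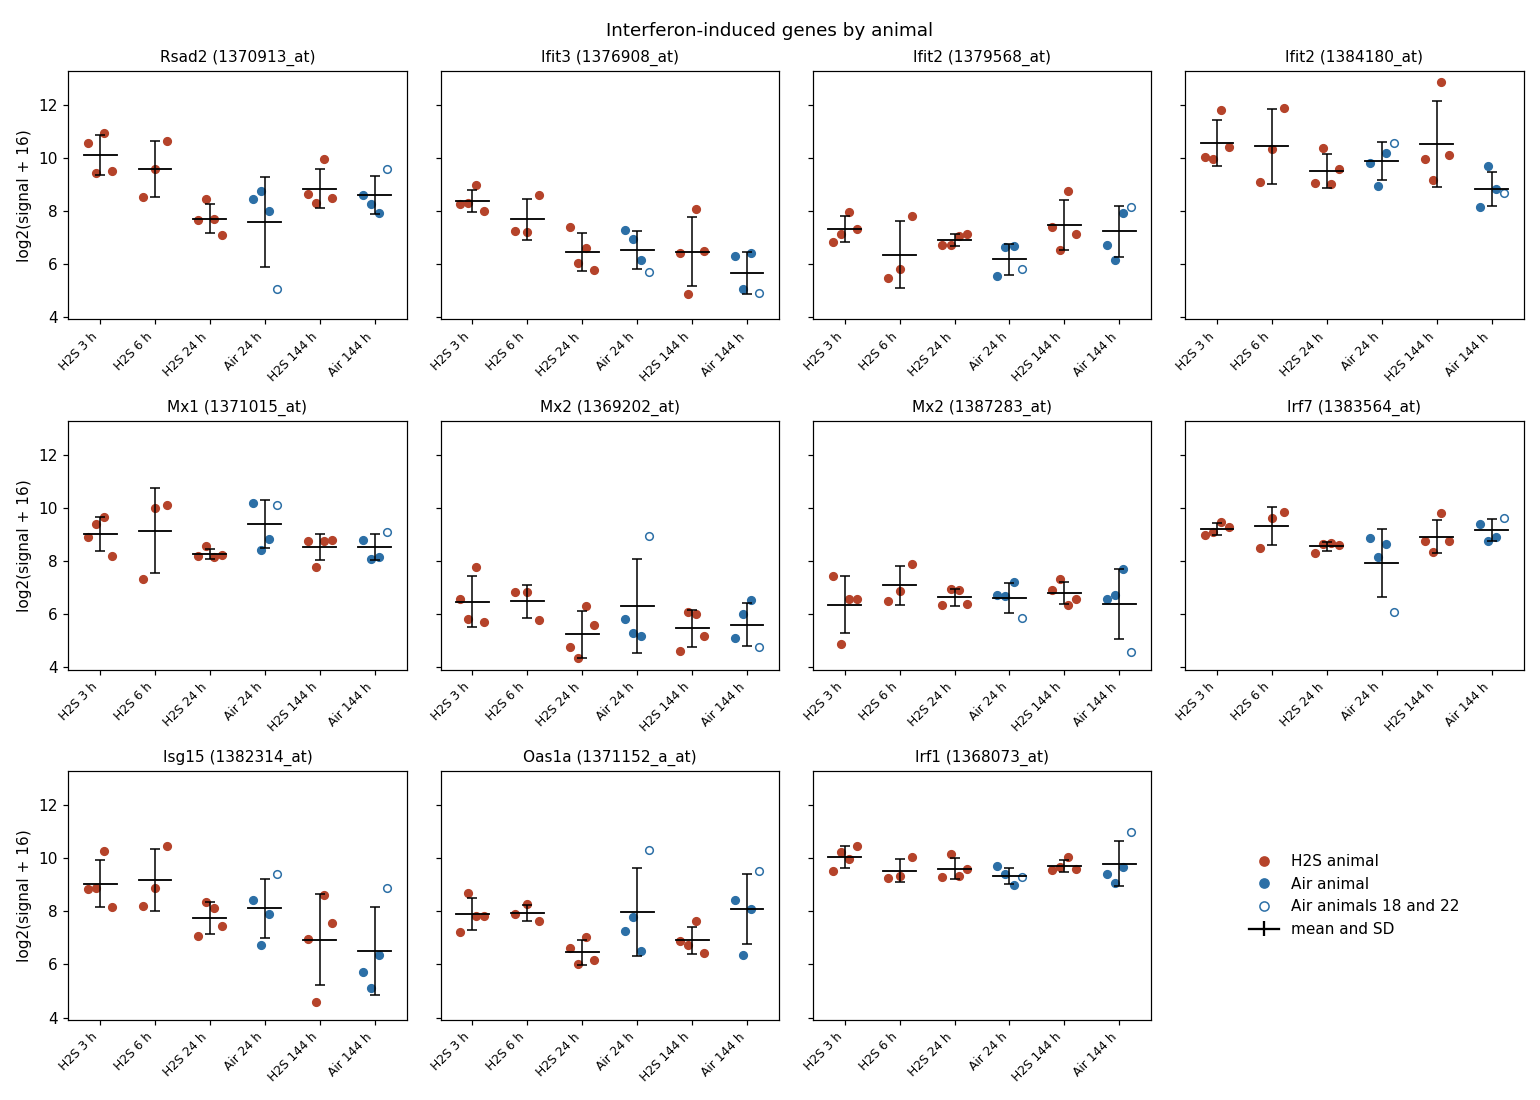
Level of each probe set, as log2 of the signal plus 16 (vertical axis), in every animal of the 6 groups (horizontal axis), with 1 panel per probe set, a point per animal (open for air animals 18 and 22) and bars for the group mean and SD. In the Rsad2 and Ifit3 panels the H2S rats at 3 h (means 10.09 and 8.38) lie above all air rats at 24 h, while the Mx1 and Oas1a panels show overlapping groups.

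At 6 h Rsad2 and Irf7 had the largest positive differences, but the 3 exposed rats of every member overlapped the air rats. Rsad2 was at 8.51, 9.57 and 10.65 in the H2S rats at 6 h, against 8.46, 8.76, 7.99 and 5.07 in the air rats at 24 h. Animal 8 lay within the air range and the other 2 above it. The difference was 2.01 (SE 0.70, 95% interval 0.54 to 3.47; limma, adjusted p = 0.781), and 1.17 without animal 18. Irf7 was at 8.50, 9.61 and 9.85 in the H2S rats at 6 h, with a difference of 1.38 (SE 0.51; limma, adjusted p = 0.781), which was 0.76 without animal 18. In both genes animal 8 was the lowest exposed rat and animal 10 the highest.

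Ifit3 was at 7.23, 7.21 and 8.58 at 6 h after H2S, a difference of 1.15 (SE 0.61; limma, adjusted p = 0.781). Isg15 was at 8.20, 8.86 and 10.45, a difference of 1.06 (SE 0.87; limma, adjusted p = 0.788). For both, animal 10 carried the highest value. Without it the Isg15 difference was 0.42 and the Ifit3 difference 0.70. Mx1, Oas1a, Irf1 and both Ifit2 probe sets had differences between −0.24 and 0.55. Of the 9 members, 7 had a positive difference, against 55% of all tested probe sets. The member median was 0.55, against 0.08 over all tested probe sets. Without animal 10 the median was 0.11 against 0.12, and 0 of 9 had an unadjusted p under 0.05. None of 9 was called by the adjusted p, where 0.00504% of all probe sets were. An unadjusted p under 0.05 was reached by 2 of 9, against 5.81% of all probe sets, and 0 of 9 had all H2S rats above all air rats, against 2.49%.

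At 24 h after a single exposure Rsad2 and Ifit3 had no clear difference from the air controls, which here share the collection time. Rsad2 was at 7.64, 8.44, 7.68 and 7.08 in the H2S rats and at 8.46, 8.76, 7.99 and 5.07 in the air rats, a difference of 0.14 (95% interval −1.21 to 1.49; limma, adjusted p = 0.952). The sign rests on animal 18: the other 3 air rats lay above 3 of the 4 exposed rats, and without animal 18 the difference was −0.69 (limma, adjusted p = 1.000). Ifit3 was at 7.40, 6.04, 6.60 and 5.78 in the H2S rats, a difference of −0.07 (95% interval −1.23 to 1.10; limma, adjusted p = 0.975). Both intervals still include a change of 1 in either direction.

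The lowest differences at 24 h were those of Oas1a and Mx1. Oas1a was at 6.61, 6.01, 7.05 and 6.15 in the H2S rats and at 7.27, 7.77, 6.51 and 10.32 in the air rats, a difference of −1.51 (SE 0.64; limma, unadjusted p = 0.0272, adjusted p = 0.612). Mx1 was at 8.18, 8.56, 8.13 and 8.21 in the H2S rats and at 10.18, 8.41, 8.83 and 10.12 in the air rats, a difference of −1.11 (SE 0.53; limma, unadjusted p = 0.0463, adjusted p = 0.612). The exposed rats were tightly grouped for Mx1, and the spread lay in the air rats, of which animals 15 and 18 were high. Without animal 18 the Oas1a difference was −0.73 and the Mx1 difference −0.87, and without animal 15 the Mx1 difference was −0.85. The summed signal of 9 markers of T, NK and B cells was 1080.2 to 2083.1 in the H2S rats and 1475.3 to 9057.3 in the air rats, highest in animals 15 and 18. Its part in these differences was not tested.

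The dimmer Ifit2 probe set was the single member whose exposed rats all exceeded their air controls at 24 h, at 6.72, 6.72, 7.07 and 7.12 in the H2S rats and 5.55, 6.66, 6.69 and 5.81 in the air rats. The gap between the groups was very small, and the difference was 0.73 (SE 0.53; limma, adjusted p = 0.668). Irf7, Isg15, Irf1 and the brighter Ifit2 probe set had differences of 0.62, −0.36, 0.26 and −0.38. Without animal 18 those of Irf7 and Isg15 were 0.00 and 0.07. Over the 9 members, 4 differences were positive and 5 negative, where 54.9% of all tested probe sets were positive. The member median was −0.07, against 0.07 over all tested probe sets. The adjusted p called 0 of 9, where it called 0.0101% of all probe sets. At the unadjusted threshold there were 2 of 9, against 8.09%, and 1 of 9 was higher without overlap, against 2.22%. Without animal 18, 0 of 9 passed the unadjusted threshold, against 953 of 19822 probe sets.

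After 5 daily exposures, at 144 h, the brighter Ifit2 probe set had the largest difference of the members. It was at 9.96, 9.16, 12.85 and 10.10 in the H2S rats at 144 h, against 8.13, 9.67, 8.82 and 8.66 in the air rats at 144 h. One exposed rat, animal 25, was far above the rest, and the lowest exposed rat lay inside the air range. The difference was 1.70 (SE 0.67, 95% interval 0.31 to 3.09; limma, unadjusted p = 0.0190, adjusted p = 0.600), and without animal 25 it was 0.92. The dimmer Ifit2 probe set gave 0.22 (SE 0.53). In animal 25 the summed signal of 6 basal cell markers was 111820, against 20658 to 20882 in the other 3 exposed rats, and its part in the Ifit2 value was not tested.

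Oas1a had the lowest difference at 144 h. It was at 6.87, 6.73, 7.62 and 6.43 in the H2S rats and at 8.40, 6.34, 8.08 and 9.51 in the air rats, a difference of −1.17 (SE 0.64; limma, adjusted p = 0.682), and −0.70 without animals 18 and 22. Rsad2 was at 8.64, 8.31, 9.94 and 8.47 in the H2S rats and at 8.59, 8.25, 7.93 and 9.58 in the air rats, 2 groups that overlapped throughout. Its difference was 0.25 (95% interval −1.10 to 1.60). Ifit3 gave 0.79, Isg15 0.41, Irf7 −0.25, Irf1 −0.07 and Mx1 0.00. In all, 6 of 9 differences were positive, against 48.4% of all tested probe sets. The member median was 0.22, against −0.02 over all tested probe sets. Without animal 25 the median was −0.15, and 0 of 9 had an unadjusted p under 0.05. The adjusted p called 0 of 9 members and 0% of all probe sets, and the unadjusted threshold was passed by 1 of 9, against 7.8%.

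Whether the exposure effect differed between 144 h and 24 h was tested as the difference of both effects. The brighter Ifit2 probe set gave 2.07 (SE 0.95; limma, unadjusted p = 0.0395, adjusted p = 0.946), and 1.30 without animal 25. The other 8 probe sets gave −0.87 (Irf7) to 1.12 (Mx1). None of the 9 members and 0% of all probe sets were called, and 1 of 9 passed the unadjusted threshold, against 4.69%.

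**Figure D2:**
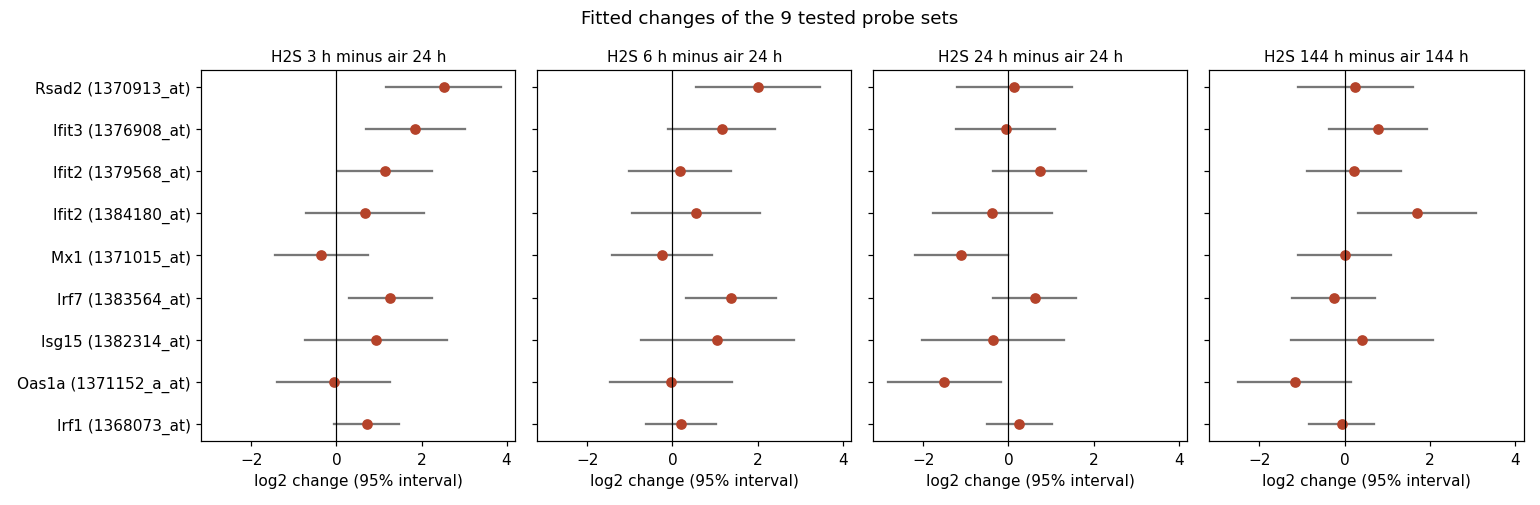
Difference of group means (log2 scale, horizontal axis) for each member probe set with its 95% interval (bars), in the 4 comparisons of H2S with air. At 3 h the Rsad2 interval runs from 1.17 to 3.87, and at 24 h it runs from −1.21 to 1.49. No difference passed the adjusted threshold.

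The air groups were compared with each other, and no member passed the adjusted threshold. Irf7 was at 9.40, 8.75, 8.91 and 9.60 in the air rats at 144 h and at 8.88, 8.15, 8.64 and 6.08 in the air rats at 24 h, a difference of 1.23 (SE 0.47; limma, unadjusted p = 0.0162, adjusted p = 0.571). That is about the size of its difference at 3 h, and without animal 18 it was 0.61. Isg15 was lower in the air rats at 144 h, at 5.73, 5.12, 6.34 and 8.89, against 8.42, 6.73, 7.91 and 9.39 at 24 h, a difference of −1.59 (SE 0.81; limma, adjusted p = 0.610). The 2 Ifit2 probe sets had differences of opposite sign, 1.05 for the dimmer and −1.05 for the brighter. Rsad2 gave 1.02, and 0.18 without animal 18. The adjusted p called 0 of 9 members and 0% of all probe sets, with 1 of 9 against 8.37% at the unadjusted threshold.

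The steps among exposed rats were compared next, and whether they differ in size was not tested. At 6 h against 3 h the differences ran from −0.96 to 0.13, with a median of −0.12 against −0.01 over all tested probe sets. The adjusted p called 0 of 9 members and 0.00504% of all probe sets, and 0 of 9 passed the unadjusted threshold, against 4.21%. At 24 h against 6 h, 7 of 9 differences were negative, with a median of −0.93 against −0.01. Of all tested probe sets, 48.8% had a positive difference there. Rsad2 was at 7.64, 8.44, 7.68 and 7.08 at 24 h and at 8.51, 9.57 and 10.65 at 6 h, a difference of −1.87 (SE 0.70; limma, unadjusted p = 0.0147, adjusted p = 1.000). Oas1a was at 6.61, 6.01, 7.05 and 6.15 at 24 h and at 7.91, 8.26 and 7.62 at 6 h, a difference of −1.48 (SE 0.69; limma, unadjusted p = 0.0442, adjusted p = 1.000). The size of both steps turned on animal 10: without it the member median was −0.77 at 6 h against 3 h and −0.50 at 24 h against 6 h, and with array weights −0.71 and −0.47. In both Rsad2 and Oas1a every rat at 24 h lay below every rat at 6 h, which held for 2 of 9 members and 3.13% of all probe sets. The adjusted p called 0 of 9 members, against 0.0101%, and the unadjusted threshold 2 of 9, against 3.06%.

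The order of group means shows which steps exceeded the spread between animals. For Rsad2 it was H2S at 3 h (10.09 ± 0.76, SD), H2S at 6 h (9.58 ± 1.07), H2S at 144 h (8.84 ± 0.74), air at 144 h (8.59 ± 0.71), H2S at 24 h (7.71 ± 0.56) and air at 24 h (7.57 ± 1.70). Only the gap of 0.88 between air at 144 h and H2S at 24 h exceeded both SDs. For Ifit3 the order was H2S at 3 h (8.38 ± 0.42), H2S at 6 h (7.68 ± 0.79), air at 24 h (6.52 ± 0.73), H2S at 144 h (6.46 ± 1.30), H2S at 24 h (6.46 ± 0.72) and air at 144 h (5.68 ± 0.79). Here the gap of 1.15 below H2S at 6 h exceeded both SDs.

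For the other members the order differed, and exposed groups did not always lead. Mx1 was at 9.38 ± 0.90 in air at 24 h, 9.14 ± 1.59 in H2S at 6 h, 9.03 ± 0.63 in H2S at 3 h, 8.52 ± 0.49 in both groups at 144 h and 8.27 ± 0.20 in H2S at 24 h. Oas1a was at 8.08 ± 1.31 in air at 144 h, 7.97 ± 1.65 in air at 24 h, 7.93 ± 0.32 in H2S at 6 h, 7.90 ± 0.60 in H2S at 3 h, 6.91 ± 0.51 in H2S at 144 h and 6.45 ± 0.47 in H2S at 24 h. For Oas1a the gap of 0.99 above H2S at 144 h exceeded both SDs. Isg15 was at 9.17 ± 1.16 in H2S at 6 h, 9.03 ± 0.88 in H2S at 3 h, 8.11 ± 1.11 in air at 24 h, 7.75 ± 0.59 in H2S at 24 h, 6.93 ± 1.70 in H2S at 144 h and 6.52 ± 1.65 in air at 144 h.

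The regulators were next. Irf7 was at 9.32 ± 0.72 in H2S at 6 h, 9.20 ± 0.21 in H2S at 3 h, 9.17 ± 0.40 in air at 144 h, 8.92 ± 0.63 in H2S at 144 h, 8.56 ± 0.16 in H2S at 24 h and 7.94 ± 1.27 in air at 24 h. Irf1 ran from 10.05 ± 0.41 in H2S at 3 h to 9.34 ± 0.30 in air at 24 h, with no gap beyond the SDs. The brighter Ifit2 probe set ran from 10.55 ± 0.86 in H2S at 3 h to 8.82 ± 0.64 in air at 144 h, and the dimmer one from 7.46 ± 0.94 in H2S at 144 h to 6.18 ± 0.58 in air at 24 h. Mx2 stayed between 4.34 and 8.95 on every array for 1369202_at and between 4.57 and 7.90 for 1387283_at. Over the 11 probe sets, 4 of 55 steps between neighbouring means exceeded both SDs.

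Some animals were the highest or lowest of their group in most members. Over 8 genes, with Ifit2 read by its brighter probe set, animal 10 had the highest value of the 3 H2S rats at 6 h in 7 of 8 genes. Animal 5 was highest at 3 h in 6 of 8 and animal 25 highest of the H2S rats at 144 h in 7 of 8. Animal 8 was lowest at 6 h in 6 of 8, and animal 24 lowest at 144 h in 6 of 8. Among the air rats at 144 h, animal 22 was highest in 6 of 8 and animal 20 lowest in 5 of 8. Animal 18 was mixed, highest of the air rats at 24 h in 3 of 8 and lowest in 3 of 8. After subtracting group means, the Pearson correlation of Oas1a over 23 arrays was −0.35 with Irf7 and −0.34 with Rsad2. Without arrays 18 and 22 it was 0.27 and 0.05, so the negative sign rested on those arrays. These values are descriptions only. Averaged over the 8 genes after centring each gene on its mean over all arrays, the levels were 1.38 in animal 10, 1.34 in animal 5 and 0.94 in animal 25, and the lowest were −1.09 in animal 24 and −0.97 in animal 20. Animals 25 and 24 share the group of H2S rats at 144 h.

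**Figure D3:**
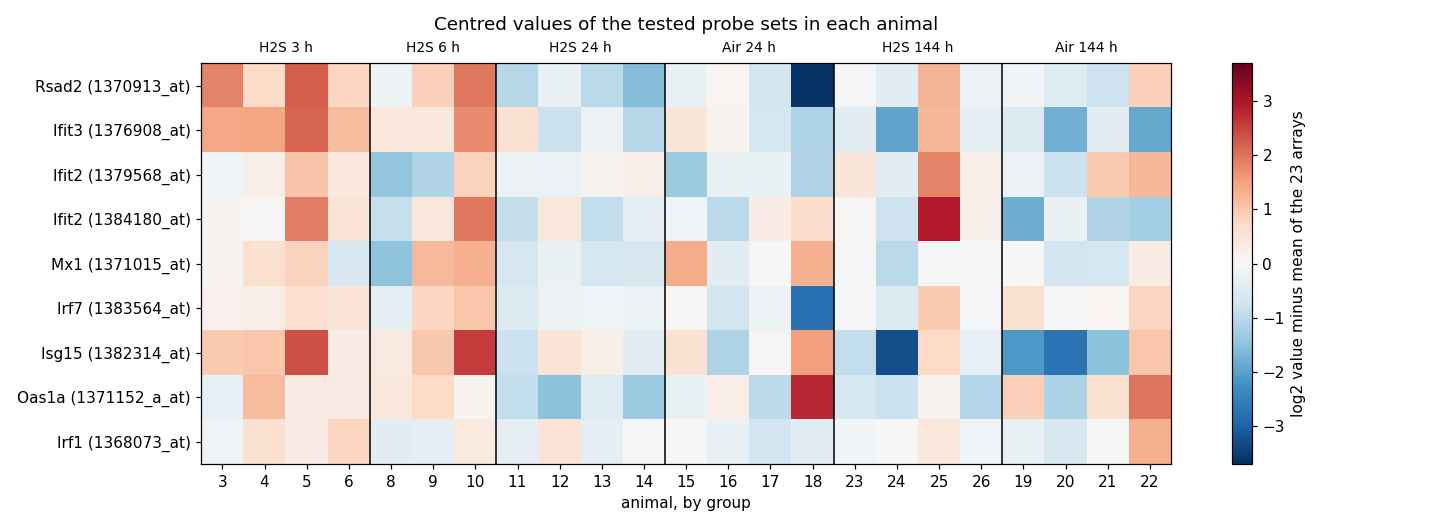
Each member's level in each animal (columns, by group) minus its mean over all 23 arrays, in log2 units, with 1 row for each of the 9 tested probe sets and colour for the difference. The columns of animals 5, 10 and 25 are high across most rows (averages of 1.34, 1.38 and 0.94), and that of animal 24 is low (−1.09).

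Leukocytes respond strongly to interferon, and their markers varied with group. At 3 h all 8 tested leukocyte markers of 10 on the array had positive differences from air at 24 h, with a median of 0.52. Of all tested probe sets, 55.4% had a positive difference there. Their summed signal, over 10 genes, was 11135 to 34559 in the H2S rats at 3 h, 5469.6 to 31328 in the H2S rats at 6 h and 7328.1 to 31153 in the air rats at 24 h, with none at 0. For macrophage and neutrophil markers, 8 of 8 tested were positive at 3 h, with a median of 0.99, and the summed signal was 14694 to 33211 in the H2S rats and 7861.3 to 19501 in the air rats; its part in the results was not tested. For T, NK and B cell markers 4 of 7 were positive (median 0.03), and for plasmacytoid dendritic cell markers 1 of 2. Leukocyte sums of 31153 to 34559 set 3 arrays apart, those of animals 4 (H2S, 3 h), 9 (H2S, 6 h) and 15 (air, 24 h), where no other array exceeded 13189. Without them the differences at 3 h were 3.04 for Rsad2, 2.14 for Ifit3 and 1.62 for Irf7. In the rats left, leukocyte sums were 11135 to 13166 in H2S at 3 h and 7328.1 to 9730.4 in air at 24 h. These ranges do not overlap, so leaving out the 3 arrays does not remove the leukocyte difference, whose part was not tested.

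Olfactory epithelium markers had a lower summed signal early after exposure, but as a list they did not all fall. The summed signal, over 8 genes, was 3504.2 to 8783.3 in the H2S rats at 3 h and 4761.9 to 5476 in the H2S rats at 6 h, against 9676.9 to 20591 in the air rats at 24 h. Such a sum leans on its brightest gene, here Cyp2a3 with a mean log2 level of 12.96. Gene by gene, 2 of 7 tested olfactory markers were positive at 3 h (median −0.63) and 3 of 7 at 6 h (−0.04). Their mean log2 level overlapped between groups, at 7.12 to 7.86 in H2S at 3 h and 7.61 to 7.87 in H2S at 6 h. In air at 24 h it was 6.95 to 9.17. The part of these markers in the results at 3 h and 6 h was not tested. At 3 h, ciliated cell markers were positive in 6 of 6 tested genes (median 0.86), secretory markers in 6 of 7 (0.69), basal markers in 3 of 5 (0.74), stroma and vessel markers in 3 of 7 (−0.07) and blood markers in 1 of 2 (0.42), and none was called.

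**Figure D4:**
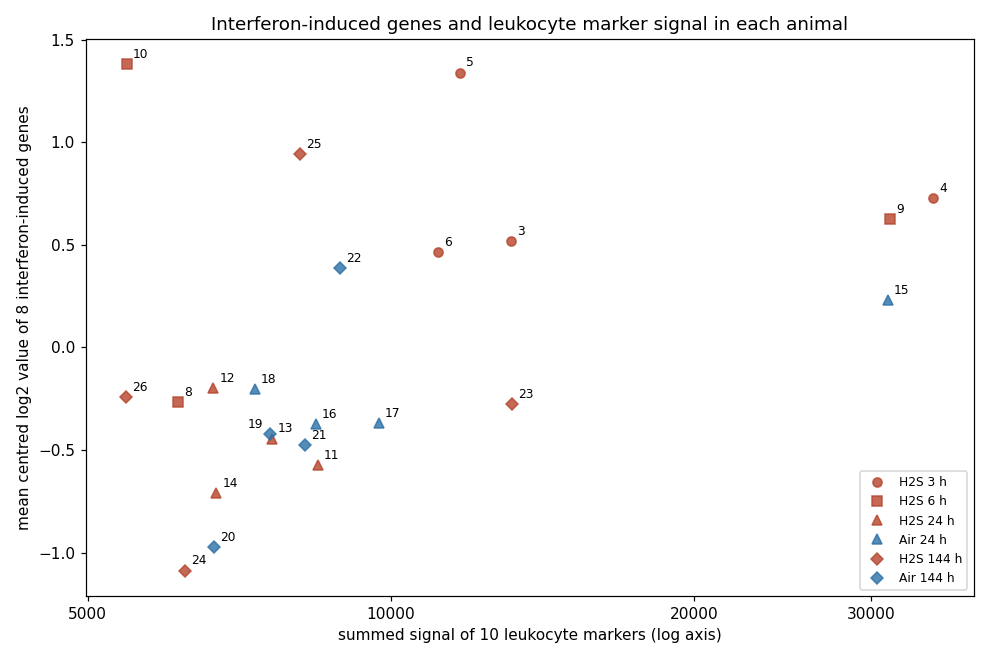
Mean centred level of 8 interferon-induced genes (vertical axis, log2 units) against the summed signal of 10 leukocyte marker genes (horizontal log axis), 1 point per animal, with colour for exposure and shape for time. Animals 10 and 5 have the highest gene averages (1.38 and 1.34) at leukocyte sums of 5469.6 and 11705. Animals 4, 9 and 15 have sums of 31153 to 34559 at gene averages of 0.73, 0.63 and 0.23. Whether the 2 measures are linked was not tested.

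Other genes of the pathway were read from lists by role. Of 11 interferon ligand genes, 3 were on the array and 0 passed the filter. Ifnb1, which encodes interferon beta, averaged 4.90 and never exceeded its array's median, and Ifng and Ifnk did so on 1 array each, that of animal 18. All 6 receptor genes were tested, and at 3 h 6 of 6 differences were positive, with a median of 0.26. Genes that carry the signal from the receptors had 8 of 10 positive (median 0.17), genes that sense nucleic acids and induce interferon 9 of 10 (0.67), and the other interferon regulatory factors 3 of 5 (0.42). The other interferon-induced effectors had 27 of 36 positive (0.34), and the interferon-gamma and antigen presentation genes 17 of 22 (0.70). Over all tested probe sets 55.4% of differences were positive, with a median of 0.09, and no gene of these lists was called. The lists are not separate, since Irf3, Irf5 and Irf9 are shared between them.

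Ifi27l2b, of the interferon-inducible Ifi27 family, had the largest difference of the other effectors at 3 h. It was at 12.06, 12.87, 13.97 and 13.87 in the H2S rats at 3 h, against 11.48, 11.47, 10.79 and 11.61 in the air rats at 24 h, groups that did not overlap. The difference was 1.86 (SE 0.53; limma, unadjusted p = 0.00205, adjusted p = 0.301). B2m, the light chain of class I molecules, was at 14.23, 14.45, 14.63 and 14.23 in the H2S rats and at 13.99, 13.82, 13.53 and 12.64 in the air rats, also apart, with a difference of 0.89 (SE 0.33; limma, adjusted p = 0.405). Socs1, the feedback inhibitor of JAK signalling, differed by 1.30 (SE 0.59; limma, adjusted p = 0.491). Myd88, the adaptor of Toll-like receptors, differed by 0.84 (SE 0.31; limma, adjusted p = 0.405), and Trim25, which activates the RNA sensor RIG-I, by 0.85 (SE 0.32; limma, adjusted p = 0.422). Psmb8, a subunit of the immunoproteasome, differed by 1.88 (SE 0.87; limma, adjusted p = 0.495), with its lowest air value, 5.65, in animal 18. Irf8, a factor of myeloid and B cells, led the other regulatory factors with 1.16 (SE 0.57; limma, adjusted p = 0.516). Cxcl10, a chemokine known as an interferon target, had a difference of −1.31 (SE 0.61; limma, adjusted p = 0.500), with its highest air value, 9.21, in animal 18.

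**Figure D5:**
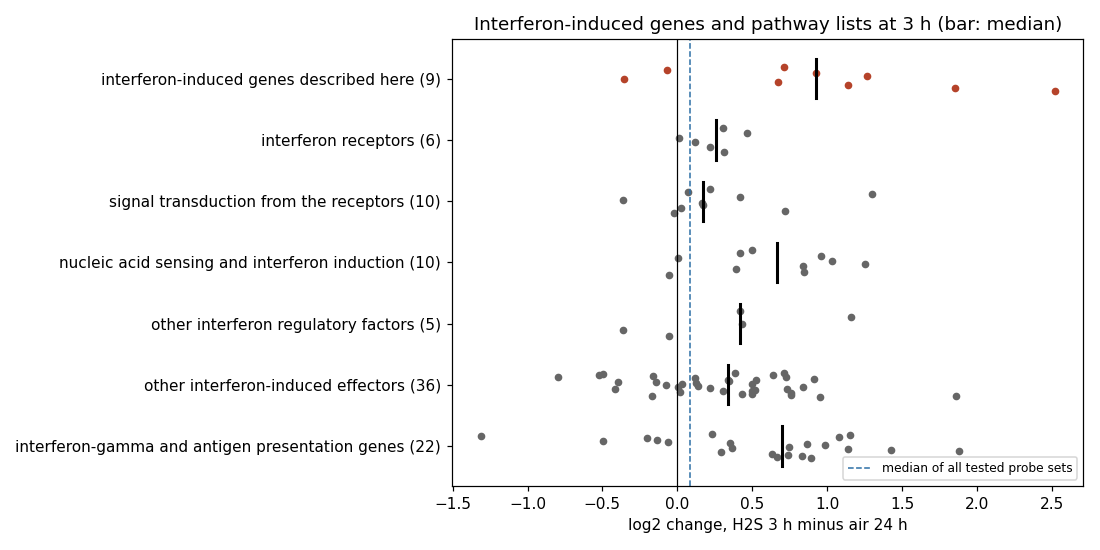
Differences between H2S rats at 3 h and air rats at 24 h (log2 scale, horizontal axis) for the tested genes of each list by role, 1 point per gene, with the list's median as a bar. List medians lie between 0.17 and 0.70 for the pathway lists, against 0.92 for the 9 member probe sets and 0.09 for all tested probe sets.

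In the later comparisons too, no gene of these lists was called. Usp18, which strips Isg15 from proteins and restrains the type I receptor, was the leading signal transduction gene at 6 h. It was at 10.12, 11.10 and 11.18 in the H2S rats at 6 h, against 9.71, 9.37, 9.38 and 10.49 in the air rats at 24 h, with 1 exposed rat inside the air range. The difference was 1.06 (SE 0.40; limma, unadjusted p = 0.0141, adjusted p = 0.781). At 24 h against 6 h after H2S its difference was −1.31 (SE 0.40; limma, unadjusted p = 0.00346, adjusted p = 0.916). Epsti1, an interferon-responsive gene, was at 7.18, 8.01, 7.21 and 7.23 in the H2S rats at 24 h and at 9.99, 7.98, 8.68 and 9.52 in the air rats at 24 h, a difference of −1.64 (SE 0.57; limma, unadjusted p = 0.00884, adjusted p = 0.580). As for Mx1, the highest air values were those of animals 15 and 18. Pml, which forms nuclear bodies, differed by −0.94 (SE 0.45; limma, adjusted p = 0.612).

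Cmpk2, the nucleotide kinase whose gene lies beside Rsad2 in mammals, was at 9.81, 10.73, 10.47 and 10.99 in the H2S rats at 144 h and at 8.80, 9.57, 10.03 and 9.12 in the air rats at 144 h. One air rat lay within the exposed range, and the difference was 1.12 (SE 0.40; limma, unadjusted p = 0.00979, adjusted p = 0.584), where that of Rsad2 was 0.25. Ifi27l2b differed by 1.46 at 144 h (SE 0.53; limma, adjusted p = 0.584) and Ifitm2, a restriction factor of virus entry, by −0.73 (SE 0.32; limma, adjusted p = 0.624).

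At 144 h the receptor genes were split. Ifnlr1, the chain specific to type III interferon receptors, was at 8.05, 8.16, 8.13 and 8.03 in the H2S rats at 144 h, against 7.04, 7.65, 6.88 and 6.12 in the air rats at 144 h. The exposed rats were nearly equal and all above the air rats, a difference of 1.17 (SE 0.44; limma, unadjusted p = 0.0146, adjusted p = 0.600). Il10rb, the second chain of that receptor, was at 10.95, 11.05, 11.33 and 11.42 in the H2S rats and at 10.42, 10.44, 10.78 and 9.89 in the air rats, a difference of 0.80 (SE 0.33; limma, adjusted p = 0.603). Ifnar2, a chain of the type I receptor, was at 9.33, 9.45, 9.40 and 9.25 in the H2S rats and at 10.01, 9.72, 10.08 and 10.66 in the air rats, a difference of −0.76 (SE 0.31; limma, adjusted p = 0.602). Groups without overlap were found for 2.5% of all probe sets in the higher and 3.43% in the lower direction at 144 h. Whether the receptor chains differ from one another in their response was not tested.

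The genes most like the members across animals were sought among 11229 other genes by Pearson's r with the mean of the 8 members. C3h15orf48 had r = 0.81 over 23 arrays (0.85 without arrays 18 and 22), Slfn4 0.75 (0.81), Prr13 0.70 (0.81), Dffa 0.70 (0.70) and Pptc7 0.70 (0.74). With group means subtracted over 23 arrays, r was 0.83 for C3h15orf48 (rank 1), 0.60 for Slfn4 (rank 45) and 0.67 for Prr13 (rank 19). It was 0.74 for Dffa (rank 4) and 0.60 for Pptc7 (rank 42), so part of the likeness lay in differences between groups. The 23 points share their animals, arrays and array scaling, so these values describe likeness in these arrays only.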

How the data were processed

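RNA of laser-captured nasal respiratory epithelium was measured in 23 rats on Affymetrix Rat230_2 arrays, 1 array per rat. Per the labels, a PicoPure column gave the RNA, and RiboAmp OA amplified it in 2 rounds. The deposited values are intensity, 1 linear signal per probe set, and the equal trimmed means (2% left out at each end) show that the arrays had been scaled. GCOS 1.0 is named in the submitters' processing notes, without settings. Arrays have no read depth, and how many there are limits the precision.

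Each intensity was raised by 16 and put on the log2 scale, which understates the change of dim genes. A probe set entered the tests where 3 or more arrays had it above their own median. This left 19822 of 31099, with 57 controls removed. Symbols came from the platform table, where 20832 probe sets had 1 symbol, 436 several and 9831 none. Groups followed the sample titles. limma 3.58.1 in R 4.3.3 fitted 1 mean per group over all 23 arrays, and 8 two-sided comparisons were adjusted by Benjamini-Hochberg. The code was tested on simulated data. Other settings changed the pseudocount, filter, normalization, weights, covariates and animals used.

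The members and lists were chosen with earlier results of these data known. The text names all members and the 5 genes most like them. From the pathway lists, up to 3 genes with the smallest p could be named per comparison. Of these it names those with an unadjusted p under 0.05 in a comparison of H2S with air, and Irf8, a narrowing made after the values were seen. Sequences and genome positions were not used here. The labels name 1 animal per array, and p-values measure the spread between these rats.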

Additional observations from a re-analysis of the deposited data

Results flagged for a closer look

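In 2 of 55 combinations of a member probe set and a group of 4 animals, 1 animal stood far from the others by Dixon's criterion, which chance meets in about 1 of 20. Mx2 (1369202_at) was at 8.95 in animal 18 of the air rats at 24 h, against 5.18 to 5.80 in the other 3. Mx1 was at 7.79 in animal 24 of the H2S rats at 144 h, against 8.74 to 8.80 in the other 3.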

How the results depend on the processing

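No member was called by limma's adjusted p in any comparison under any setting tried. For Rsad2 at 3 h the difference ranged over all settings from 1.69 to 3.04, with adjusted p from 0.0673 (array weights) to 0.932. For Ifit3 at 3 h it ranged from 1.42 to 2.24 and for Irf7 from 0.62 to 1.62. The number of members with 1 sign under all settings was 7 of 9 at 3 h, 4 of 9 at 6 h, 5 of 9 at 24 h and 3 of 9 at 144 h. Counts over all probe sets depended far more on the setting: 16 were called at 3 h (0 to 67 over the settings), 1 at 6 h (0 to 68), 2 at 24 h (0 to 52), 0 at 144 h (0 to 2), 1 at 6 h against 3 h (0 to 110) and 2 at 24 h against 6 h (0 to 93). The setting without animals 4, 9 and 15 was chosen after the data were seen. No paired analysis was possible because each rat gave 1 array and no animal number is shared between groups. With 3 or 4 rats a group, a difference of 1 log2 unit lay within many member intervals, but not all. The interval of Rsad2 at 24 h ran from −1.21 to 1.49, and that of Irf1 at 144 h from −0.83 to 0.69.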
